A study of Mus musculus with 8 samples.

Results

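The 48 genes described here encode the machinery of cell division: the cyclins and kinases that start mitosis, the spindle checkpoint, the centromere and kinetochore, the chromosomal passenger complex, the spindle motors, the anaphase machinery, condensin with topoisomerase, the central spindle, and a transcription factor and a proliferation marker of dividing cells. They were chosen by name, as the rows of the annotated gene table whose gene column equals a listed symbol, and all 48 were found among the 30743 genes of the table. Expression was measured by poly(A) RNA-seq of gastrocnemius, a fast-twitch muscle of the calf, in 4 DTG and 4 MckrtTA mice. The comparison asks which transcripts differ in muscle that grows after Akt1, a kinase of the insulin and growth factor pathway, is switched on in muscle fibres.

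DTG mice were double transgenic, with the genotype 1256[3Emut]Mck-rtTA+, TRE-myrAkt1+. MckrtTA mice, the controls, were single transgenic littermates that carried 1256[3Emut]Mck-rtTA+ alone. The Mck promoter directs rtTA, a doxycycline-dependent activator, to skeletal muscle, and TRE-myrAkt1 supplies a membrane-targeted, active Akt1 when rtTA and doxycycline are both present. Mice of both groups were labelled as strain Myo L8 and as 4 months old (the methods call the DTG mice males), drank water with 0.5 mg/ml doxycycline for 2 weeks, and were fasted overnight before the muscle was taken. Each library came from 1 mouse, and the libraries were run on 2 lanes with 2 mice of each group on each lane. Throughout, DTG values are given for mice 253, 283, 282 and 306 and MckrtTA values for mice 255, 281, 280 and 307, in this order, with the first pair of each group on lane 1 and the second pair on lane 8.

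Mitosis is the step in which a cell that has copied its DNA condenses its chromosomes, attaches them to a spindle of microtubules, separates them and divides. Most of its machinery is transcribed only in the late part of the cell cycle, so that these transcripts are scarce in resting tissue. Nuclei inside adult muscle fibres do not divide. In muscle, cell division belongs to the mononuclear cells between the fibres, such as satellite cells, fibroblasts, endothelial cells and immune cells.

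Values are normalised read signals, which the authors scaled so that the upper quartile of each library is 1000, and 1 read was worth 1.25 to 1.68 in DTG libraries and 2.25 to 2.97 in MckrtTA libraries. The libraries held 46.0 to 54.0 M reads in DTG and 45.6 to 58.6 M reads in MckrtTA by this reckoning. A gene was tested where its signal was 25 or more in at least 3 of the 8 libraries, which 15073 genes met, and it was called higher or lower where limma on log2(signal + 10) gave a Benjamini-Hochberg adjusted p under 0.005 over all genes tested and a change of at least 2-fold. The added 10 shrinks the log2 fold change of genes with low signal. Akt1 itself, which checks the group labels, had 69301, 44224, 63102 and 37986 in the DTG libraries, against 4955, 5054, 4047 and 4433 in the MckrtTA libraries, and these values do not separate the transgene from the mouse's own gene. The defining markers of muscle fibres were present in every library, with Acta1, skeletal actin, at 1195572 to 1996717 in DTG and 2639158 to 3184651 in MckrtTA, and Ckm, muscle creatine kinase, at 427619 to 878732 in DTG and 1849781 to 2413961 in MckrtTA.

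Of the 48 mitotic genes, 42 were higher in DTG muscle, 1 was lower, and 5 did not pass the test. Over all genes tested, 14.6% were called higher and 16.0% lower. The median log2 fold change of the 48 genes was 3.58, beside -0.26 for all genes tested. All 4 DTG values lay above all 4 MckrtTA values for 42 of the genes, which held for 22.2% of all genes tested, and all lay below for 1, which held for 40.4%. The changes ran up to 5.75 on the log2 scale, and 20 genes had a log2 fold change of 4 or more.

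The gene that was lower was Pttg1, and the 5 that did not pass were Aurka, Cenpk, Spc24, Tpx2 and Anln. Of the 48 genes, 25 reached a signal of 25 in fewer than 3 MckrtTA libraries and so entered the test only through DTG libraries. Entry in this way favours genes that are higher in DTG muscle but does not fix the call, and all 25 were higher. Over all genes tested, those that entered in this way were called higher more often than the rest. The count of 25 alone thus does not set these genes apart. The other 23 genes reached a signal of 25 in at least 3 MckrtTA libraries, and of these 17 were higher, 1 was lower and 5 did not pass. Among all 13925 genes tested that reached it in this way, 1572 (11.3%) were called higher, and among all 15073 genes tested 2207 were. The median log2 fold change of the 23 genes was 2.38, beside -0.34 over those 13925 genes.

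**Figure D1:**
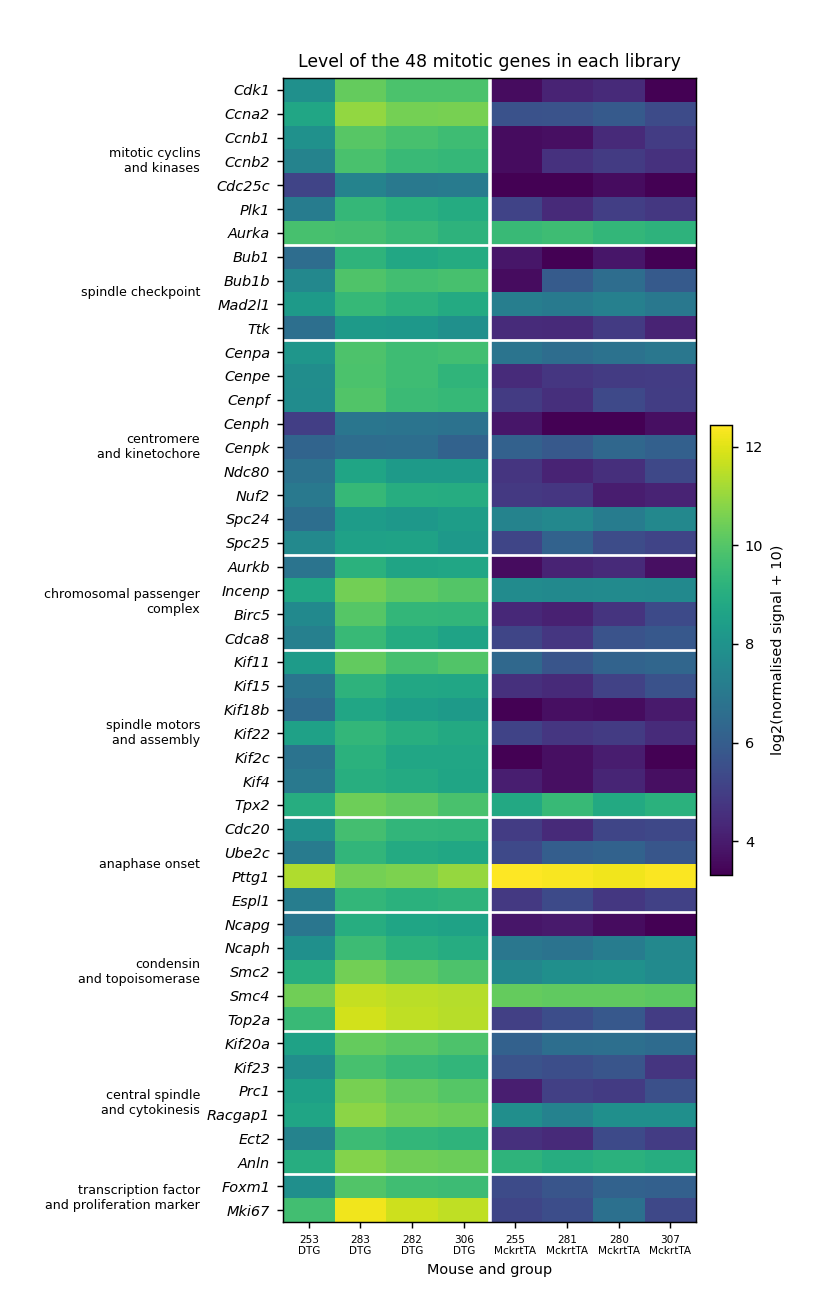
Level of each of the 48 genes (rows, by role) in each library (columns, DTG mice to the left and MckrtTA mice to the right), as log2(normalised signal + 10) on the colour scale. DTG columns are lighter for most genes, mouse 253 is the darkest of the DTG columns, and Pttg1, Smc4 and Aurka stand out as light rows in MckrtTA.

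The promoters of the 4 genes with the smallest adjusted p are printed to show the start regions of the genes that separated the groups most clearly. Each runs 5′ to 3′ on the gene's strand, with 250 bases before the annotated start and 50 after it, from RefSeq on GRCm38.p6. All 4 genes lie on the minus strand: Kif22 at chr7:127042371-127042670, Top2a at chr11:99024140-99024439, Cdk1 at chr10:69352863-69353162 and Cdc20 at chr4:118437294-118437593. Capitals mark CCAAT or its reverse complement ATTGG, and TTTGAA, its reverse complement TTCAAA, or TTCGAA, which is its own reverse complement.
Kif22: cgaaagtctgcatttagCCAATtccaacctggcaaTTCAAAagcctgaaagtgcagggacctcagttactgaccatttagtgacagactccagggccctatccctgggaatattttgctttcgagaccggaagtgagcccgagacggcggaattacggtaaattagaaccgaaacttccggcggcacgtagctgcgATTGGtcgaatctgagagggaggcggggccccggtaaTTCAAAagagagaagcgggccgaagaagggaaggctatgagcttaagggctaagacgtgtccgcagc
Top2a: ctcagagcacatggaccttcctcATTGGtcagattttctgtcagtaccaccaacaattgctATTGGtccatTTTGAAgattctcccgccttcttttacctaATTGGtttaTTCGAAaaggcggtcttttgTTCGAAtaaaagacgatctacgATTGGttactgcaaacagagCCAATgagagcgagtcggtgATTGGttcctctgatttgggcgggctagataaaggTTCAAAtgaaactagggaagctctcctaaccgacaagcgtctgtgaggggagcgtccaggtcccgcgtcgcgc
Cdk1: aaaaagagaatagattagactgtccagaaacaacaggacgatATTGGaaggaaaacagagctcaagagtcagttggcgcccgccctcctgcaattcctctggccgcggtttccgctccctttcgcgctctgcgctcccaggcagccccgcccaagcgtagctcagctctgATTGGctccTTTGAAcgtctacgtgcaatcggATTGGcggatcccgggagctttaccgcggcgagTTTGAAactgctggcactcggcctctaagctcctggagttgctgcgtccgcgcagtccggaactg
Cdc20: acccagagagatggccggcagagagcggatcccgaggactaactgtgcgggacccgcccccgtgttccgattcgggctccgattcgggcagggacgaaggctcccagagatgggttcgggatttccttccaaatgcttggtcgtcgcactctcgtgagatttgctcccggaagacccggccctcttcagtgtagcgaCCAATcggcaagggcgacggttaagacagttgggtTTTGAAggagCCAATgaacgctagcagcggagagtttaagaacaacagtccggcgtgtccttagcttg

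These letters are those of 2 elements known from promoters of the late cell cycle. CCAAT is the sequence that the factor NF-Y binds, and TTTGAA or TTCGAA is the cell cycle homology region, which the MuvB complex binds. Top2a, the enzyme that untangles DNA before chromosomes separate, had 6 CCAAT matches and 4 cell cycle homology matches in its window. Kif22 had 2 of each, Cdk1 had 3 and 2, and Cdc20 had 2 and 1. The match nearest to the start was a cell cycle homology sequence at -17 in Kif22, -23 in Top2a and -15 in Cdk1, whereas in Cdc20 a CCAAT at -8 lay closer than the TTTGAA at -18, each position being that of the first base of the match.

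RefSeq promoters were matched by symbol for 39 of the 48 genes. The 9 genes without an entry were Ccna2, Cdc25c, Spc24, Aurkb, Incenp, Tpx2, Smc4, Kif20a and Foxm1. With 1 promoter per gene, taken at the most upstream start, and with both strands read and overlapping matches counted under both elements, CCAAT occurred in 30 of the 39 promoters (76.9%), and in 38.0% of the 27025 genes with a promoter of the same length. At least 2 CCAAT matches occurred in 18 (46.2%), against 12.1% of all. The cell cycle homology letters also occurred in 30 (76.9%), against 19.5% of all, and both elements together in 26 (66.7%), against 7.73% of all. Of the 6 genes that were not higher, 4 had a promoter: Aurka held both elements (2 and 1 matches), Cenpk held 1 CCAAT, Anln held 2 cell cycle homology matches, and Pttg1 held none of these letters. A match of letters is a description and not a shown binding site, and the median GC content of the 39 promoters was 58.3%, beside 52.7% over all.

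Among the 7 mitotic cyclins and kinases, 6 were higher and 1, Aurka, did not pass, with a median log2 fold change of 4.54. Cdk1, the kinase that drives entry into mitosis, had a signal of 227, 1234, 909 and 914 in the DTG libraries, against 2.32, 8.6, 11.2 and 0 in the MckrtTA libraries. Every DTG library was far above every MckrtTA library, in which the gene had at most 5 reads, and the log2 fold change was 5.57 ± 0.50 (SE, n = 4 each, limma adjusted p = 1.55e-05). Ccna2, which encodes cyclin A2, a partner of Cdk1 and Cdk2, had 411, 1967, 1450.0 and 1491 in the DTG libraries, against 39.4, 40.1, 49.4 and 32.6 in the MckrtTA libraries. It was the most even of the cyclins across MckrtTA mice, and its log2 fold change was 4.54 ± 0.43 (limma adjusted p = 2e-05). Ccnb1, cyclin B1, the partner that activates Cdk1 at mitosis, had 232, 1069, 867 and 767 in the DTG libraries, against 2.32, 2.87, 11.2 and 20.8 in the MckrtTA libraries. The log2 fold change of Ccnb1 was 5.18 ± 0.49 (limma adjusted p = 2.02e-05).

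Within each DTG library Ccnb1 and Cdk1 kept nearly the same ratio, with a signal of Ccnb1 at 0.839 to 1.02 times that of Cdk1, although mouse 253 had far less of both. In the 3 MckrtTA libraries with reads of Cdk1 the ratio was 0.333 to 1.0, from 5 reads of either gene at most. Ccnb2, cyclin B2, Plk1, a kinase of mitotic entry and spindle assembly, and Cdc25c, the phosphatase that removes inhibitory phosphate from Cdk1, were higher as well, with log2 fold changes of 4.58, 3.79 and 3.29. Cdc25c had 330 reads over the DTG libraries and 1 read over the MckrtTA libraries, a ratio of 177 after scaling with a 95% counting interval of 31.6 to 7018. This interval and the one given for Cenph cover counting error only.

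Aurka, the kinase of centrosomes and spindle poles, at chr2:172356196-172370525 (mm10), had 879, 823, 714 and 588 in the DTG libraries, against 709.9, 774, 652 and 584 in the MckrtTA libraries. The groups overlapped, with mouse 253 the highest of all 8 libraries and not the lowest of its group. Its log2 fold change was 0.13 ± 0.15 (95% interval -0.21 to 0.47, limma adjusted p = 0.45). Aurka stood apart from its relative Aurkb: the signal of Aurka was 1.44 to 8.56 times that of Aurkb in DTG and 58.0 to 306 times in MckrtTA, without overlap. The MckrtTA ratios rest on 1 to 5 reads of Aurkb per library, so their size is uncertain. Such a ratio within a library does not depend on how libraries are scaled, and transcript length cancels between the groups.

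All 4 genes of the spindle checkpoint, which delays anaphase until each chromosome is attached, were higher, with a median log2 fold change of 3.49. Bub1, a checkpoint kinase of the kinetochore, had 85.9, 592, 434 and 472 in the DTG libraries, against 4.64, 0, 4.49 and 0 in the MckrtTA libraries. The gene had no read in 2 of the MckrtTA libraries and at most 2 reads in the others, and its log2 fold change was 4.79 ± 0.53 (limma adjusted p = 4.91e-05). Ttk, known as Mps1, the kinase that starts checkpoint signalling, had 89.3, 305, 283 and 231 in the DTG libraries, against 11.6, 11.5, 20.2 and 8.9 in the MckrtTA libraries, a log2 fold change of 3.26 ± 0.37 (limma adjusted p = 5.4e-05). Mad2l1, which encodes the checkpoint protein Mad2, had 301, 669, 568 and 464 in the DTG libraries, against 139, 126, 146 and 116 in the MckrtTA libraries. It had the highest level per length of transcript of the group in MckrtTA muscle and the smallest log2 fold change of the 4, 1.80 ± 0.23 (limma adjusted p = 0.000122). Bub1b, which encodes BubR1, had a log2 fold change of 3.72 with the widest interval of the group (2.15 to 5.30), and MckrtTA mouse 255 had 2.32 where the other MckrtTA mice had 50.4 to 85.4.

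Of the 9 centromere and kinetochore genes, 7 were higher and 2, Cenpk and Spc24, did not pass, with a median log2 fold change of 2.82. Cenpe, a kinesin that carries chromosomes to the spindle equator, had 212, 918, 767 and 618 in the DTG libraries, against 11.6, 17.2, 20.2 and 20.8 in the MckrtTA libraries (log2 fold change 4.37 ± 0.41, limma adjusted p = 1.95e-05). Cenpf, a large kinetochore protein of late cell cycle stages, had 207, 975, 734 and 679 in the DTG libraries, against 20, 13.5, 30.2 and 21.7 in the MckrtTA libraries (log2 fold change 4.22 ± 0.43, limma adjusted p = 3.1e-05). Both lay above all MckrtTA values in each DTG mouse, mouse 253 included. Cenpa, the histone H3 variant that marks centromeres, Cenph, a subunit of the inner kinetochore, and Ndc80 and Nuf2, which form the microtubule-binding arm of the Ndc80 complex, were higher too, with log2 fold changes of 2.53, 2.82, 3.31 and 4.11. Cenph had 253 reads over the DTG libraries and 3 over the MckrtTA libraries, a scaled ratio of 45.3 (95% counting interval 15.3 to 221).

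The Ndc80 complex holds Ndc80, Nuf2, Spc24 and Spc25 as its subunits, and their transcripts did not move alike. Spc25 had 184, 364, 369.7 and 294 in the DTG libraries, against 27.8, 63, 33.7 and 26.7 in the MckrtTA libraries, with no overlap and a log2 fold change of 2.72 ± 0.29 (limma adjusted p = 4.36e-05). Spc24 had 88, 318, 278 and 329 in the DTG libraries, against 157, 179, 130.3 and 181 in the MckrtTA libraries, so that mouse 253 lay below every MckrtTA mouse while the other DTG mice lay above all of them. Its log2 fold change was 0.48 ± 0.37 (95% interval -0.37 to 1.32, limma adjusted p = 0.279). The signal of Spc24 was 0.789 to 1.08 times that of Ndc80 in DTG and 6.08 to 20.8 times in MckrtTA, and 0.479 to 1.12 times that of Spc25 in DTG and 2.84 to 6.76 times in MckrtTA. Neither ratio overlapped between the groups, but MckrtTA libraries held only 3 to 10 reads of Ndc80 and 9 to 22 of Spc25.

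Cenpk, an inner kinetochore subunit and a partner of Cenph, had 67.4, 85.8, 88.2 and 62.7 in the DTG libraries, against 60.3, 48.7, 71.9 and 59.3 in the MckrtTA libraries. The groups overlapped, and the log2 fold change was 0.29 ± 0.19 (95% interval -0.15 to 0.73, limma adjusted p = 0.203). In the annotation Cenpk overlaps the opposite-strand gene Ppwd1 over 233 bases, and the strand setting of the counting is not given in the sources used here. Genes called higher also overlap opposite-strand genes that had signal, some over longer stretches. Among these are Prc1 with Rccd1 (21810 bases), Ncapg with Lcorl (3366), Kif20a with Cdc23 (2327) and Cdca8 with 9930104L06Rik (2264).

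All 4 genes of the chromosomal passenger complex, which corrects faulty attachments and later steers cytokinesis, were higher, with a median log2 fold change of 3.76. Aurkb, its kinase, had 103, 551, 389 and 407 in the DTG libraries, against 2.32, 8.6, 11.2 and 2.97 in the MckrtTA libraries, a log2 fold change of 4.34 ± 0.47 (limma adjusted p = 4.36e-05). Birc5, which encodes survivin, had 189.5, 1023, 652 and 621 in the DTG libraries, against 10.5, 7.74, 15.7 and 31.4 in the MckrtTA libraries, a log2 fold change of 4.44 ± 0.48 (limma adjusted p = 4.38e-05). The groups were well apart for both. Cdca8, which encodes borealin, had 145, 691, 479 and 375 in the DTG libraries, against 27.8, 17.2, 40.4 and 47.5 in the MckrtTA libraries, a log2 fold change of 3.19 ± 0.44 (limma adjusted p = 0.000184). Incenp, the scaffold, had the highest level per length of transcript of the 4 in MckrtTA muscle and the smallest log2 fold change, 2.18. The subunits thus changed by unequal amounts, and the signal of Birc5 was 1.31 to 1.66 times that of Cdca8 in DTG, against 0.377 to 0.661 times in MckrtTA. Aurkb was at 0.247 to 0.402 times the signal of Incenp in DTG and 0.0115 to 0.0581 times in MckrtTA. The MckrtTA ratios rest on 2.7 to 10.6 reads of Birc5 and 1 to 5 reads of Aurkb per library.

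Of the 7 spindle motors and assembly genes, all 6 kinesins were higher, and Tpx2 did not pass. Kif22, a kinesin that binds chromosome arms, had 362, 652, 509 and 449 in the DTG libraries, against 25.5, 17.2, 20.2 and 11.9 in the MckrtTA libraries. Mouse 253 came closer to the other DTG mice here than in any other of the 42 higher genes, at 67.5% of their mean, and Kif22 had the smallest adjusted p of the 48 genes (1.78e-06, limma) with a log2 fold change of 4.12 ± 0.23. Kif4, a chromosome-bound kinesin, had 118, 516, 468 and 396 in the DTG libraries, against 6.96, 2.87, 8.99 and 2.97 in the MckrtTA libraries (log2 fold change 4.47 ± 0.43, limma adjusted p = 2.25e-05). Kif2c, which takes microtubules apart at kinetochores, had 101, 554, 407 and 409 in the DTG libraries, against 0, 2.87, 6.74 and 0 in the MckrtTA libraries (log2 fold change 4.74 ± 0.48, limma adjusted p = 2.87e-05), with no read in 2 MckrtTA libraries. Kif18b, which trims astral microtubules, Kif11, the motor that pushes the spindle poles apart, and Kif15, which holds the spindle apart together with Kif11, had log2 fold changes of 4.34, 3.40 and 3.46. Tpx2, which activates Aurka and nucleates spindle microtubules, had 501, 1376, 1162 and 885 in the DTG libraries, against 444, 699, 454 and 549 in the MckrtTA libraries. Mouse 253 lay within the MckrtTA range and the other DTG mice above it, and the log2 fold change was 0.79 ± 0.29 (95% interval 0.12 to 1.45, limma adjusted p = 0.037).

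Among the 4 genes of anaphase onset, 3 were higher and 1 was lower. Cdc20, which activates the anaphase-promoting complex at mitosis, had 236, 822, 622 and 614 in the DTG libraries, against 20.9, 11.5, 27.2 and 29.7 in the MckrtTA libraries (log2 fold change 4.08 ± 0.37, limma adjusted p = 1.77e-05). Espl1, which encodes separase, the protease that opens the cohesin ring, had 135, 642, 549 and 590.2 in the DTG libraries, against 18.6, 31.5, 18 and 23.7 in the MckrtTA libraries (log2 fold change 3.70 ± 0.45, limma adjusted p = 8.6e-05). Ube2c, the ubiquitin-conjugating enzyme of the anaphase-promoting complex, had a log2 fold change of 2.69. In the annotation Ube2c overlaps 1662 bases of Tnnc2, a troponin gene of the opposite strand whose signal was far larger in every library.

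Pttg1 encodes securin, the inhibitor that holds separase inactive until anaphase. Its signal was 2575, 1460.4, 1596 and 2003 in the DTG libraries, against 5507, 5205, 4814 and 5299.9 in the MckrtTA libraries. All DTG values were below all MckrtTA values, mouse 253 was the highest of the DTG mice, and the log2 fold change was -1.48 ± 0.17 (95% interval -1.85 to -1.10, limma adjusted p = 5.21e-05). Securin and separase transcripts thus moved in opposite directions on this scale: the signal of Pttg1 was 2.27 to 19.1 times that of Espl1 in DTG and 165 to 297 times in MckrtTA. The MckrtTA ratios rest on 8 to 11 reads of Espl1 per library. Where libraries were scaled to equal totals, Pttg1 kept its direction with a log2 fold change of -0.53 and lost the call, because the change was then under 2-fold. Pttg1 lies at chr11:43420248-43426248 (mm10), and the annotation places no other gene over it.

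All 5 condensin and topoisomerase genes were higher, with a median log2 fold change of 2.14. Top2a had 719, 3530.2, 3019.7 and 2805 in the DTG libraries, against 23.2, 34.4, 47.2 and 20.8 in the MckrtTA libraries. It had the largest log2 fold change of the 48 genes with 10 added to the signal, 5.75 ± 0.47 (limma adjusted p = 9.89e-06). With 1 added, Top2a was at 6.13 and Cdk1, Bub1 and Kif2c, which have few or no reads in MckrtTA libraries, led at 7.29, 7.09 and 7.06. Ncapg, a subunit of condensin I, which compacts mitotic chromosomes, had 109, 497, 404 and 367 in the DTG libraries, against 4.64, 5.73, 2.25 and 0 in the MckrtTA libraries (log2 fold change 4.59 ± 0.43, limma adjusted p = 1.96e-05). Smc2, an ATPase of condensin, had 514, 1422, 1121 and 926 in the DTG libraries, against 174, 221, 231 and 196 in the MckrtTA libraries (log2 fold change 2.14 ± 0.28, limma adjusted p = 0.000123). Ncaph, the subunit that closes the condensin I ring, had a log2 fold change of 1.78. Smc4, the other ATPase, had the smallest log2 fold change among the higher genes, 1.03 ± 0.23 (limma adjusted p = 0.00317), and the highest level per length of transcript of the 5 in MckrtTA muscle. Smc4 lost the call when any library but that of mouse 253 was left out, with adjusted p of 0.00837 to 0.0111. The signal of Smc4 was 2.22 to 2.93 times that of Smc2 in DTG and 5.06 to 7.15 times in MckrtTA.

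Of the 6 genes of the central spindle and cytokinesis, 5 were higher and Anln did not pass. Prc1, which bundles the microtubules of the central spindle, had 349, 1488, 1199 and 1038 in the DTG libraries, against 6.96, 22.9, 20.2 and 36.3 in the MckrtTA libraries (log2 fold change 4.93 ± 0.46, limma adjusted p = 1.96e-05). Kif20a, a kinesin of the central spindle, had 370.5, 1239, 1096 and 947 in the DTG libraries, against 60.3, 88.8, 89.9 and 80.1 in the MckrtTA libraries (log2 fold change 3.24 ± 0.35, limma adjusted p = 4.05e-05). Kif23 and Racgap1 encode the motor and the GTPase-activating subunits of centralspindlin. Kif23 had 217, 879, 717 and 635 in the DTG libraries, against 40.6, 35.7, 43.3 and 16.6 in the MckrtTA libraries (log2 fold change 3.70 ± 0.42, limma adjusted p = 5.63e-05), and Racgap1 had a log2 fold change of 2.38. The ratio of Kif23 to Racgap1 was 0.475 to 0.542 in the 4 DTG libraries, close to constant, and 0.0758 to 0.231 in MckrtTA libraries. The MckrtTA ratios rest on 5.61 to 19.3 reads of Kif23 per library. Ect2, the exchange factor that activates RhoA at the cell equator, had a log2 fold change of 4.07. Anln, which encodes anillin, a scaffold of the contractile ring, had 502, 1695, 1380.3 and 1333 in the DTG libraries, against 592, 504, 557 and 501 in the MckrtTA libraries. Mouse 253 lay at the low end of the MckrtTA range and the other DTG mice above it, and the log2 fold change was 1.05 ± 0.33 (95% interval 0.31 to 1.78, limma adjusted p = 0.0175).

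Foxm1, a transcription factor of late cell cycle genes, and Mki67, the gene of the proliferation marker Ki-67, were both higher. Foxm1 had 222, 986, 782 and 749 in the DTG libraries, against 32.5, 43, 62.9 and 59.3 in the MckrtTA libraries (log2 fold change 3.39 ± 0.43, limma adjusted p = 0.000101). Mki67 had 802, 4838, 3364 and 2977 in the DTG libraries, against 27.8, 34.4, 92.1 and 29.7 in the MckrtTA libraries (log2 fold change 5.62 ± 0.54, limma adjusted p = 2.26e-05). The place of Mki67 among the 48 genes depended on the amount added to the signal, at rank 2 with 10 added, 9 with 1 added and 1 with 50 added. Its ratio to Top2a was 1.06 to 1.37 in DTG libraries and 1.0 to 1.95 in MckrtTA libraries, ranges that overlapped.

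**Figure D2:**
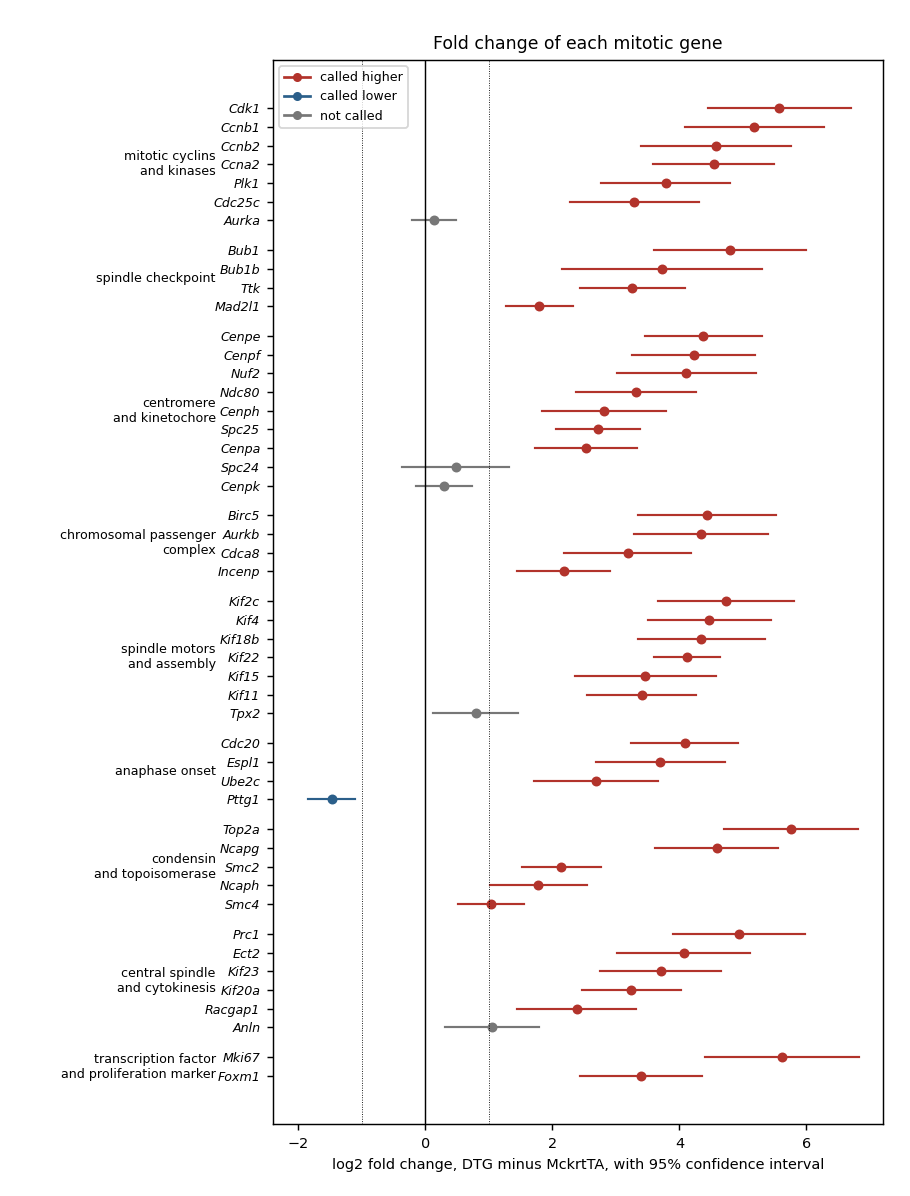
Log2 fold change of each of the 48 genes, DTG minus MckrtTA (points), with its 95% confidence interval (lines), by role; dotted lines mark a 2-fold change. Pttg1 at -1.48 lies below 0, Aurka, Cenpk and Spc24 have intervals that include 0, and 20 genes lie at 4 or more.

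Levels can be compared between genes only per length of transcript, here per kb of the longest protein-coding transcript in the GENCODE annotation. On this scale the means of the 48 genes in MckrtTA muscle ran over a 10770-fold range, led by Pttg1, Aurka, Smc4, Tpx2, Anln and Spc24. In DTG muscle the range was 20.4-fold, and over the 42 higher genes it was 10.5-fold in DTG and 944-fold in MckrtTA. Both MckrtTA ranges start at Cdc25c, at 0.289 per kb from 1 read over the MckrtTA libraries, so their exact size rests on that read. The next lowest gene, Bub1, was at 0.6675 per kb. Among the 6 genes with the highest level in MckrtTA muscle, Smc4 alone was called higher, and it had the smallest change of the genes called higher. Level in MckrtTA and fold change share the MckrtTA values, so this is a description and carries no test.

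The 6 genes that were not higher made up 15.0 to 42.2% of the summed signal per kb of the 48 genes in DTG libraries and 79.9 to 83.6% in MckrtTA libraries. Pttg1 alone accounted for 5.86 to 27.9% in DTG and 64.3 to 68.2% in MckrtTA. The mean level of the genes called higher was 55.8 to 584 per kb in DTG muscle, with a median of 186 over the 42 genes, against 0.289 to 273 per kb with a median of 7.43 in MckrtTA muscle.

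**Figure D3:**
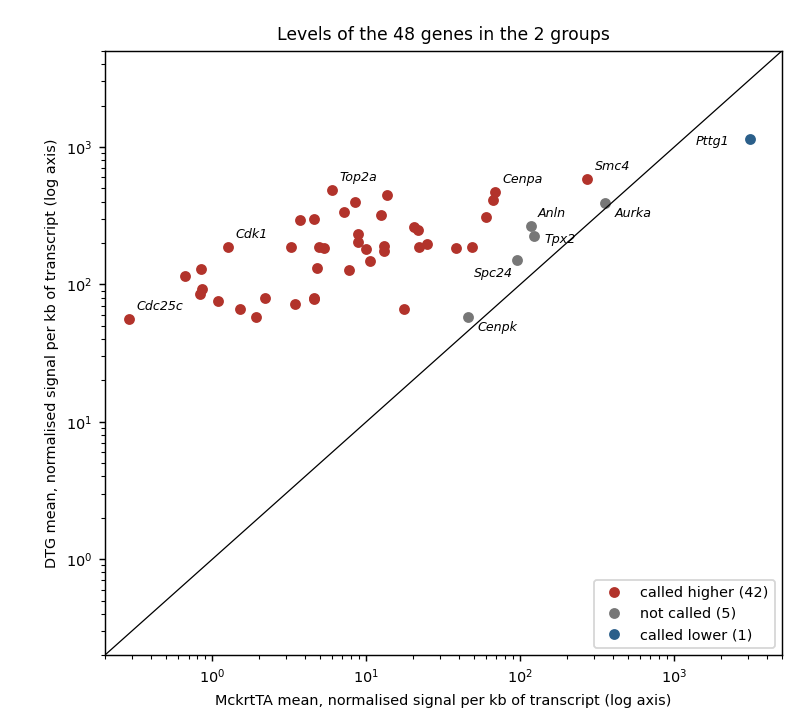
Mean normalised signal per kb of transcript of each of the 48 genes in DTG (vertical, log axis) against MckrtTA (horizontal, log axis), with the line of equality. Points called higher spread from 0.289 to 273 per kb along the MckrtTA axis and from 55.8 to 584 per kb along the DTG axis, and Pttg1 lies below the line. The lowest MckrtTA point, Cdc25c, rests on 1 read.

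The DTG mice differed among themselves in all of these genes together. Mouse 253 was the lowest DTG mouse in all 42 higher genes, and mouse 283 the highest in 41 of them. The summed signal of the 42 genes was 10856 in mouse 253, 43988 in mouse 283, 34689 in mouse 282 and 32314 in mouse 306, against 2797 to 3217 in MckrtTA mice. This gave means of 30462 ± 14008 in DTG and 2951 ± 192 in MckrtTA (SD, n = 4 each), a 10.3-fold difference. These 42 genes were picked for being higher, and the sum over all 48 genes, which Pttg1 takes a large part of in MckrtTA muscle, was 15469, 49747, 39908 and 37514 in the DTG mice, against 9896 to 10292 in MckrtTA mice, a 3.52-fold difference of the means with mouse 253 at 1.53 times the MckrtTA mean. In the sum of the 42 genes mouse 253 stood at 29.3% of the mean of the other DTG mice and at 3.68 times the MckrtTA mean, while the other DTG mice averaged 12.5 times the MckrtTA mean.

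Gene by gene, mouse 253 had a median of 25.8% of the mean of the other DTG mice over the 42 genes (17.2 to 67.5%). Over all 2207 genes called higher the same median was 62.4% (quartiles 40.1 and 94.5%). Mouse 253 still lay above every MckrtTA mouse in all 42 genes. It was also the lowest DTG mouse in all 42 under each of the other scalings tried, with medians of 17.97 to 24.8% of the other DTG mice.

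Without mouse 253, 44 of the 48 genes were higher, with Tpx2 and Anln added, against 18.3% of all genes, and 1 was lower. The median log2 fold change was then 4.05. Within lane 8 alone, with 2 mice of each group, 44 genes were higher, against 16.6% of all genes, and 1 was lower, with a median of 3.59. Within lane 1 alone, which holds mouse 253 and mouse 283, the median was 3.35 and 47 of the 48 log2 fold changes were above 0, but by limma 0 of the 48 genes passed the test, while 41 had an unadjusted p under 0.05 with a higher value and 1 with a lower one, against 16.4% and 27.2% of all genes. Over all genes, 54 were called higher and 4 lower within lane 1. Scaling to equal totals moved the median of all genes tested by 0.92, and 46 of the 48 genes were then higher, against 30.8% of all genes. Aurka, Cenpk, Tpx2 and Anln were added, at log2 fold changes of 1.07, 1.13, 1.73 and 1.98, and neither Spc24 nor Pttg1 was called.

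Markers of other cell types were read beside these genes, since RNA from a whole muscle mixes fibres with the cells between them. In such samples, fewer cells of a type and less RNA per cell cannot be told apart. All 8 macrophage and monocyte markers were higher in DTG muscle, and their summed signal was 58818, 187167, 158486 and 120557 in DTG mice, against 4028 to 5269 in MckrtTA mice. Mouse 253 was the lowest DTG mouse in 7 of the 8, and for Itgam it was the highest, at 10023, with the other DTG mice at 5175 to 7102. Of 7 fibroblast markers 4 were higher and 3 were not called, and their sum was 129151, 590661, 508220 and 400312 in DTG, against 72667 to 89089 in MckrtTA. The collagens Col3a1 and Col1a1 made up 65.3 to 90.6% of that sum in DTG. Dcn, which encodes decorin, was lower in all 4 DTG mice on the deposited scale, with a log2 fold change of -0.53 (limma adjusted p = 0.00169) that was under 2-fold and smaller than the 0.92 by which scaling to equal totals moves the median of all genes. The values of Fap and Tcf7l2 overlapped between the groups. Mouse 253 stood at 37.8% of the mean of the other DTG mice in macrophage markers and at 25.8% in fibroblast markers. The order of the DTG mice in the sum of the 42 mitotic genes, with 253 lowest, then 306, 282 and 283, was that of the macrophage and of the fibroblast sums, and of 7 of the 8 macrophage but 3 of the 7 fibroblast markers taken singly. Mouse 253 was the lowest DTG mouse in 6 of the 7 fibroblast markers, and for Pdgfra mouse 306 was. The 8 muscle fibre markers, of which 4 were lower and 4 did not pass, had the reverse order in their sum. It was 10270563 in mouse 253 and 4700540 to 5994828 in the other DTG mice, against 19313775 to 21436615 in MckrtTA mice. Myh4 and Atp2a1 made up 44.1 to 50.6% of that sum in DTG. Taken singly, mouse 253 was the highest DTG mouse in 6 of the 8 markers and the lowest in 1, Myh1.

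Other cell types gave other patterns. Pax7, which defines satellite cells, had 126, 383, 363 and 571 in the DTG libraries, against 288, 289, 218 and 311 in the MckrtTA libraries, and Myf5, a myogenic factor of satellite cells and myoblasts, had 246, 299, 358 and 643 in the DTG libraries, against 271, 206, 179.8 and 211 in the MckrtTA libraries; neither passed the test (limma adjusted p = 0.646 and 0.0402). Of all 8 satellite cell and myoblast markers measured, 3 were higher and 5 were not called. Those higher were Myog and Myod1, myogenic factors, at log2 fold changes of 4.31 and 1.92 (limma adjusted p = 1.55e-06 and 4.64e-05), and Tmem8c, the gene of the myoblast fusion protein myomaker, at 6.14 (limma adjusted p = 0.000402). Tmem8c had 155, 2487, 3817 and 5729 in the DTG libraries, against 25.5, 5.7, 24.7 and 8.9 in the MckrtTA libraries, with mouse 253 far below the other DTG mice, whereas Myod1 was highest in mouse 253. Among 6 endothelial markers 1 was lower and 5 did not pass, with a sum of 19377 to 27646 in DTG and 29561 to 32749 in MckrtTA. Their median log2 fold change was -0.50 on the deposited scale. With libraries scaled to equal totals that median was 0.45, and 0 of these markers were called lower. The 5 neutrophil markers summed to 1514 to 2241 in DTG and 41.6 to 77.3 in MckrtTA, with mouse 253 the highest DTG mouse. The 7 lymphocyte markers summed to 62.3 in mouse 253 and 463 to 536 in the other DTG mice, against 28.6 to 88.1 in MckrtTA. No macrophage, fibroblast or muscle fibre marker was at 0 in any library, whereas Elane and Mpo of the neutrophil list were at 0 in at least 1 library of each group. The part of any of these cell types in the change of the mitotic genes was not tested.

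**Figure D4:**
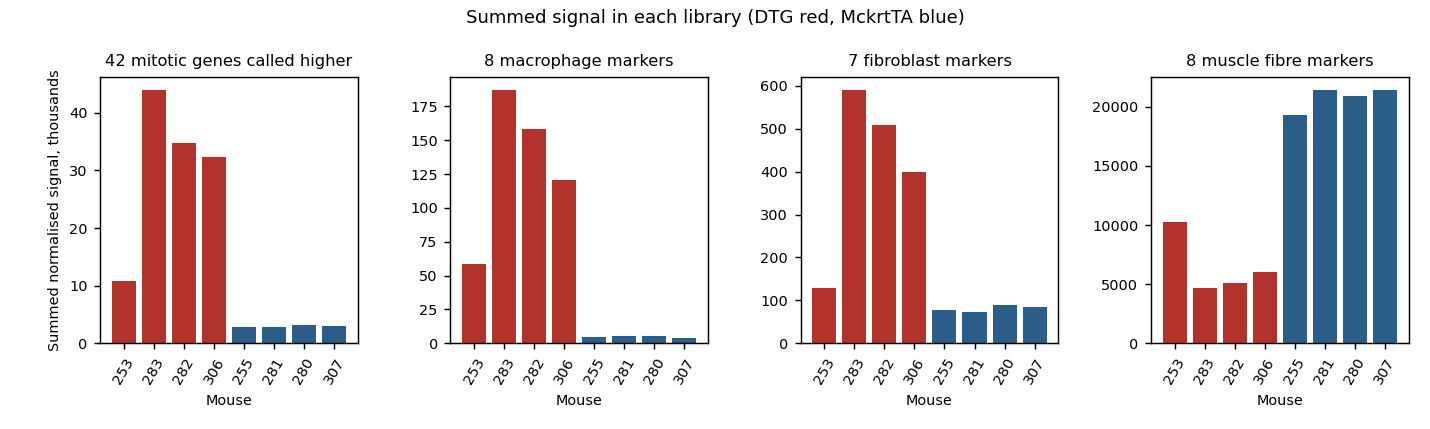
Summed normalised signal (bars from 0; the axis counts units of 1000) in each library for the 42 mitotic genes called higher, 8 macrophage markers, 7 fibroblast markers and 8 muscle fibre markers, with DTG mice in red on the left and MckrtTA mice in blue on the right of each panel. Mouse 253 has the lowest DTG bar in the first 3 panels and the highest DTG bar in the muscle fibre panel.

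Other genes of cell division fell into lists that changed to different extents. Of 58 further genes of the mitotic phase that were in the table, 46 were higher and 0 lower by limma (5 were lower at an unadjusted p under 0.05, against 45.6% of all genes), with a median log2 fold change of 2.61. Of the 58, 25 entered the test only through DTG libraries, which favours genes that are higher there. Over all genes tested, those that entered in this way were called higher more often than the rest, and all 25 were higher. The other 33 had 21 higher, against 11.3% of all genes with such MckrtTA levels, and 12 not called, with a median of 1.54. The 3 genes of smallest adjusted p were all among the 25. Cenpi, a kinetochore subunit, had 119.6, 309, 247 and 237 in the DTG libraries, against 11.6, 5.73, 15.7 and 8.9 in the MckrtTA libraries (log2 fold change 3.49 ± 0.30, limma adjusted p = 1.32e-05). Cks2, a small subunit that binds cyclin-dependent kinases, and Pbk, a mitotic kinase, had log2 fold changes of 3.86 and 4.61 (limma adjusted p = 1.47e-05 and 2e-05).

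The anaphase-promoting complex is the ubiquitin ligase that Cdc20 and Ube2c serve. Of its 14 subunits and activators measured, 0 were higher and 2 were lower by limma (0 higher and 9 lower at an unadjusted p under 0.05). Over all genes 16.0% were called lower, and 26.6% were higher and 45.6% lower at that unadjusted p. The subunits had a median of -0.36, beside -0.26 over all genes. Anapc5 had 29538, 18102, 17947 and 21357 in the DTG libraries, against 77154, 83338, 78173 and 85233 in the MckrtTA libraries (log2 fold change -1.93 ± 0.16, limma adjusted p = 1.18e-05), and Anapc13 had a log2 fold change of -1.31 (limma adjusted p = 1.42e-05). Anapc11, at -0.83, changed by less than 2-fold and was not called. Fzr1, another activator of the complex, had a log2 fold change of -0.0014. Cdc20 was at 0.141 to 0.483 times the signal of Fzr1 in DTG, and at 0.00688 to 0.0175 times in MckrtTA. The MckrtTA ratios rest on 4 to 12.1 reads of Cdc20 per library.

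Of 12 genes of cohesin, its regulators and condensin II, 0 were higher and 1 was lower by limma (0 higher and 11 lower at an unadjusted p under 0.05, against 26.6% and 45.6% of all genes), with a median of -0.56. Pds5b, a cohesin regulator, had 2597, 2253, 2370.0 and 2108 in the DTG libraries, against 5254, 6670.5, 5371 and 5263 in the MckrtTA libraries (log2 fold change -1.27 ± 0.11, limma adjusted p = 1.25e-05), while Stag2 and Ncapd3 were at -0.93 and -0.97 and were not called. Among 9 genes of the MuvB core and its partners, 0 were higher and 2 were lower by limma (2 higher and 5 lower at an unadjusted p under 0.05), shares near those of all genes. The 2 lower genes were Rbl2, a pocket protein that represses cell cycle genes in resting cells, at a log2 fold change of -1.77 (limma adjusted p = 2.01e-05), and Lin52, a MuvB subunit, at -1.56 (limma adjusted p = 2.06e-05). Tfdp1, a partner of E2F factors, was at -0.86 and was not called. The signal of Rbl2 was 2831, 2459, 2683 and 4129.9 in the DTG libraries, against 8499.8, 10029.5, 11058 and 11221 in the MckrtTA libraries.

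Among 17 further genes of the kinetochore and checkpoint, 4 were higher and 1 was lower, against 14.6% and 16.0% of all genes, with a median of 0.30. Kntc1 entered the test only through DTG libraries. Of the other 16 genes 3 were higher, against 11.3% of all genes with such MckrtTA levels. Those higher were Kntc1 and Zwilch, subunits of a complex that recruits dynein to kinetochores, at 4.05 and 2.35, Pkmyt1, a kinase that inhibits Cdk1, at 1.79, and Cenpt, an inner kinetochore subunit, at 1.66. Cenpb, a protein that binds centromeric satellite DNA, was lower at -1.06 (limma adjusted p = 9.91e-06). With libraries scaled to equal totals, none of these 5 lists had a lower gene, the anaphase-promoting complex and cohesin lists had 1 higher gene each, MuvB had 3 and the kinetochore and checkpoint list had 9. Over all 15073 genes tested, 30.8% were higher and only 302 genes were lower on that scale.

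**Figure D5:**
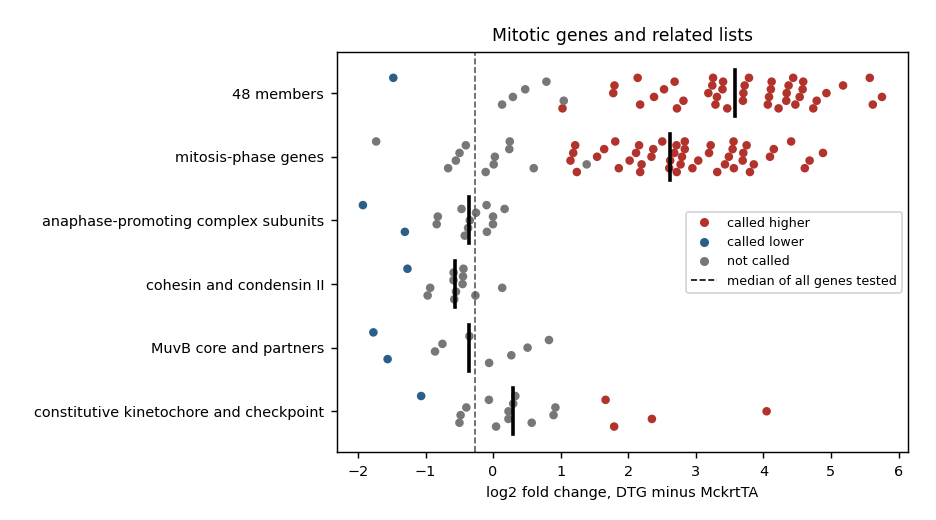
Log2 fold change, DTG minus MckrtTA, of each tested gene (points) in the 48 genes and the 5 further lists (rows); black bars are the medians of the lists and the dashed line is the median of all genes tested, -0.26. The medians are 3.58 for the 48 genes and 2.61 for the mitosis-phase genes, and -0.36 for the anaphase-promoting complex, -0.56 for cohesin and condensin II, -0.35 for MuvB and 0.30 for the kinetochore and checkpoint genes.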

How the data were processed

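Poly(A) RNA-seq of gastrocnemius was measured in 4 DTG and 4 MckrtTA mice. Per the labels and the study's methods, the authors made stranded paired-end libraries, aligned reads to mm10 and quantified genes with RSEM. BWA is named as well, and the strand setting of the counting is not given in the sources used here. The deposited values are gene signals scaled by the authors to an upper quartile of 1000, a signal that is not a count: 86.8 to 88.1% of low values were within 0.1 of a whole number of reads, so no count test was run, although the study used one. The authors' own fold changes and p-values were not used. The table's gene starts count from 0 and were written from 1.

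Signals were compared as log2(signal + 10) with limma 3.58.1 (trend, R 4.3.3) over the 15073 genes with a signal of at least 25 in 3 of 8 libraries. The study's thresholds were kept for calls: at least 2-fold, with p under 0.005 after Benjamini-Hochberg adjustment. No covariate was used. Tested on simulated data of 14362 genes, 200 of them changed, this fit called 100% of 4-fold and 98% of 2.5-fold changes and 0 unchanged genes. These rates describe the simulated data and do not give the rates of missed or false calls among the mitotic genes. The spread among DTG mice was wide for some of those genes (mean ± SD 821 ± 424 for Cdk1 and 2995 ± 1668 for Mki67) and narrower for others (493 ± 122 for Kif22). Read numbers are signals divided by the value of 1 read. Ratios of reads have exact 95% intervals. Transcript lengths and overlaps came from GENCODE on GRCm38, promoters from RefSeq.

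The members, roles and lists were chosen with earlier results of these data known. In full, each role gives its 3 genes of smallest adjusted p and every gene not called higher, and each further list its 3 genes of smallest adjusted p and all calls where there were 5 or fewer. Alternatives were other added amounts, minimums, scalings, thresholds, no variance trend, lane as covariate, each lane alone and each library left out. The mice are separate animals. A further marker list is not reported here.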

Additional observations from a re-analysis of the deposited data

Results flagged for a closer look

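In each group of 4 mice the highest and the lowest value of each gene were set against the rest, and a value was picked out where its gap to the nearest other value exceeded Dixon's 95% critical share of the group's range. Chance picks about 1 in 20 groups, and 4 of the 96 groups were picked. Cenph was at 21.9 in DTG mouse 253, the lowest of that group, against 99.0 to 109 in the other DTG mice, and the groups did not overlap with it included. In MckrtTA, mouse 280 was the highest for Cdc25c, at 2.25 with the other MckrtTA mice at 0, which is 1 read, and for Mki67, at 92.1, against 27.8 to 34.4 in the other MckrtTA mice. Racgap1 was at 155 in MckrtTA mouse 281, the lowest of that group, against 218 to 220.2 in the others.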

How the results depend on the processing

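Of the 48 genes, 40 to 44 were higher and 1 was lower with each library left out, and the median log2 fold change was 3.41 to 4.05, with mouse 253 the library whose absence gave 44 and 4.05. The counts of genes called were all 42 higher and 1 lower with 1 or 50 added, with 2 of the 3 other minimums, with 2 of the 3 other scalings and with lane as covariate. None of the 48 genes reversed its direction under any alternative. The cause was not tested for the differences that follow. With libraries scaled to equal totals, all genes called were 4649 higher and 302 lower, 0 of the 48 genes were lower, and of the further lists the anaphase-promoting complex had 1 higher and 0 lower and cohesin and condensin II 1 higher and 0 lower. The trimmed mean gave 1401 lower genes in all, and the median of ratios 1281, with 0 lower in cohesin and condensin II. Higher calls were 47.9% of all calls on the deposited scale, 93.9% with equal totals, 65.4% with the trimmed mean and 68.0% with the median of ratios. Lane 1 alone gave 54 higher and 4 lower genes in all, with 0 higher and 0 lower among the 48 genes, 0 higher among the further mitosis-phase genes, and 0 lower among the anaphase-promoting complex and among cohesin and condensin II, from fewer mice. Lane 8 alone gave 1 lower mitosis-phase gene and 2 lower cohesin and condensin II genes. An adjusted p under 0.05 with no fold minimum gave 3858 higher and 6645 lower genes in all, and 4, 9 and 11 lower genes among the mitosis-phase, anaphase-promoting complex and cohesin and condensin II lists. Leaving out 1 library gave 0 to 1 lower mitosis-phase genes (1 without mouse 253) and 1 to 2 lower cohesin and condensin II genes (2 without MckrtTA mouse 281). With 45.6 to 58.6 M reads per library, genes with under 10 reads in every MckrtTA library (14 of the 48) have folds that rest on few reads. No paired analysis was possible because the labels number the mice singly and no number is shared between the groups.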
